A study of Mus musculus with 6 samples.

Results

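The genes described here are 10 members of the Hippo pathway and of the transcriptional machinery it controls, out of 25184 genes in the count table of cultured mouse hepatocytes. They were chosen by name, with earlier results of these data known. The members are *Yap1* and *Wwtr1*, which encode the coactivators YAP and TAZ, *Tead1* and *Tead4*, which encode DNA-binding partners of both, the kinase genes *Lats1* and *Lats2*, and *Amotl2*, *Ajuba*, *Vgll4* and *Ankrd1*. Poly(A) RNA was sequenced from primary hepatocytes of chow-fed mice, isolated from the left lateral lobe by enzymatic digestion and a density gradient and harvested after a night on collagen-coated plates in medium with serum. The 3 control libraries came from *Sucnr1* fl/fl mice without Cre and the 3 knockout libraries from Hep-*Sucnr1* KO mice, which carry the same floxed alleles and 1 copy of Alb-Cre, a recombinase driven by the hepatocyte albumin promoter. Both genotypes therefore carry the floxed *Sucnr1* alleles, Cre without floxed alleles was not among the groups, and no freshly isolated liver sample was part of the design, so that the values describe cells in culture and not the response to culture. The age and sex of these mice and whether each library came from its own mouse are not given in the sources used here, so p-values measure only the spread between these libraries. RNA was extracted on day 1 (1 library per genotype, *Sucnr1* fl/fl replicate 1 and Hep-*Sucnr1* KO replicate 3) and on day 2 (2 libraries per genotype), and the depth was between 30504248 and 38770694 counts per library.

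The Hippo pathway is a kinase cascade in which STE20-like kinases, with a scaffold and MOB adaptors, activate LATS1 and LATS2. The LATS kinases phosphorylate YAP and TAZ, which are then bound by 14-3-3 proteins in the cytoplasm or degraded, while the unphosphorylated coactivators enter the nucleus and drive transcription with TEAD factors. In the liver, the pathway restrains organ size and supports the differentiated state of hepatocytes, and cell spreading on a stiff surface is known to activate YAP. Phosphorylation and location of YAP are not visible in mRNA, so the data bear on the transcripts of the pathway only.

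TEAD factors bind a short core of letters, GGAATG on one strand and CATTCC on the other, and the promoters of the members were searched for it because several of them are known YAP targets as well as pathway parts. The windows were those of RefSeq (GRCm38.p6), each with 250 bases before and 50 after a transcription start. A window was found for 8 of the 10 members, and 7 of these 8 (87.5%) held the core at least once on either strand. Over all genes with a window the share was 16.6%, over all 32851 windows 14.7%, and over the genes tested here 14.6%. By window, the core was in 8 of the 10 windows of the members (80.0%). The windows of the members had 42.7% to 74.0% GC, and among windows of tested genes with at least 50% GC the share was 11.7%. A match describes letters and does not show that a factor binds there. The stretches below run 5′ to 3′ on the strand of the gene, with the core in capitals, and show the 7 members whose window holds it. They extend 20 bases to each side of the outer cores, or 12 bases where the core lies in an annotated exon.
*Yap1*, chr9:8004712-8004757, minus strand: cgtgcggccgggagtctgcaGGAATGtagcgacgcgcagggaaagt
*Wwtr1*, chr3:57576021-57576066, minus strand: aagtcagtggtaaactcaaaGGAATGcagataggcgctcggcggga
*Vgll4*, chr6:114969260-114969305, minus strand: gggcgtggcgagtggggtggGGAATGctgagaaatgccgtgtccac
*Lats2*, chr14:57746102-57746131, minus strand: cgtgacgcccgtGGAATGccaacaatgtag
*Amotl2*, chr9:102717727-102717756, plus strand: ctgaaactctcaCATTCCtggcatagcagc
*Ankrd1*, chr19:36120037-36120066, minus strand: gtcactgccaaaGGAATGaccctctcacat
*Ankrd1*, chr19:36119950-36119979, minus strand: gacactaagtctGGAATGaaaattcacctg
*Ajuba*, chr14:54577800-54577867, minus strand: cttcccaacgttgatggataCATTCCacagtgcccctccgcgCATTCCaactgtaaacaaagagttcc

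*Ankrd1* and *Ajuba* were the members with 2 cores. Counted from the start base, the cores of *Ankrd1* began at −210 and −123 and those of *Ajuba* at −186 and −164, while the single cores of *Yap1*, *Vgll4* and *Amotl2* began at −141, −82 and −65. *Wwtr1* has 2 overlapping windows that contain the same core, at −170 and −136 from the respective starts. The core of *Lats2* began at 4, just inside the transcript, and its other window had none. In the GENCODE annotation the cores of *Yap1*, *Wwtr1* and *Ajuba* lay upstream of any gene, that of *Vgll4* in an intron of a longer transcript, and those of *Ankrd1*, *Amotl2* and *Lats2* in noncoding exon sequence of their own gene. The window of *Lats1* held no core, and *Tead1* and *Tead4* had no window.

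**Figure D1:**
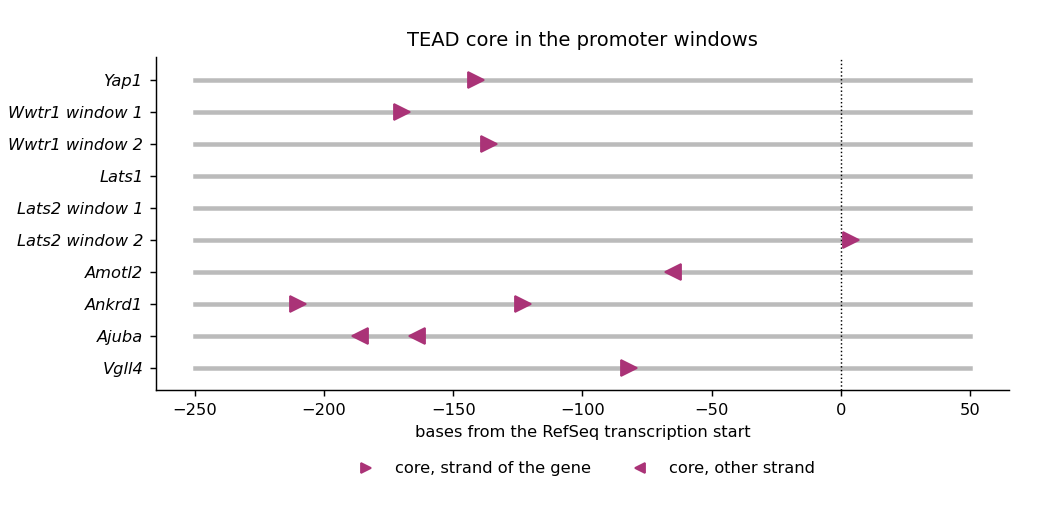
Position of the TEAD core in the promoter windows of 8 members, in bases from the RefSeq transcription start (x axis). Each grey line is a window and each triangle a core, pointing right where it lies on the strand of the gene and left where it lies on the other strand; most cores stand between −210 and −65, and *Lats1* has none.

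Levels of different genes were compared per length, as CPM (counts scaled to library totals with TMM factors) per kilobase of all annotated exons of the gene, over the 6 libraries of both genotypes. *Yap1* had the highest level of the members, 10.1 ± 0.597 CPM per kb (mean ± SD, n = 6), followed by *Wwtr1* at 6.69 ± 0.965, and *Yap1* was above *Wwtr1* in 6 of 6 libraries, as *Wwtr1* was above the next gene. *Vgll4* (4.53 ± 1.01), *Tead1* (4.51 ± 0.832), *Lats1* (4.32 ± 0.345) and *Amotl2* (3.42 ± 1.24) followed close together on the same scale, and no 2 neighbours among these 4 kept their order in all libraries. *Ajuba* stood at 2.85 ± 0.986 CPM per kb and was above *Lats2*, at 1.23 ± 0.136, in 6 of 6 libraries. *Ankrd1* (0.425 ± 0.205) and *Tead4* (0.333 ± 0.0995) were the lowest and swapped places between libraries, with *Ankrd1* above in 4 of 6. *Lats1* thus had a higher level per length than *Lats2*, and *Tead1* than *Tead4*, in every library. With the longest transcript in place of all exons, *Vgll4* moved up to 11.1 and passed *Wwtr1* at 6.81, whereas *Yap1* remained first at 17.8 and *Tead4* last at 0.389 CPM per kb. For *Lats2*, 42.4% of the exon bases are shared with the annotated gene Gm49361 on the same strand, and reads there may have been counted for neither gene, so its level is uncertain.

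**Figure D2:**
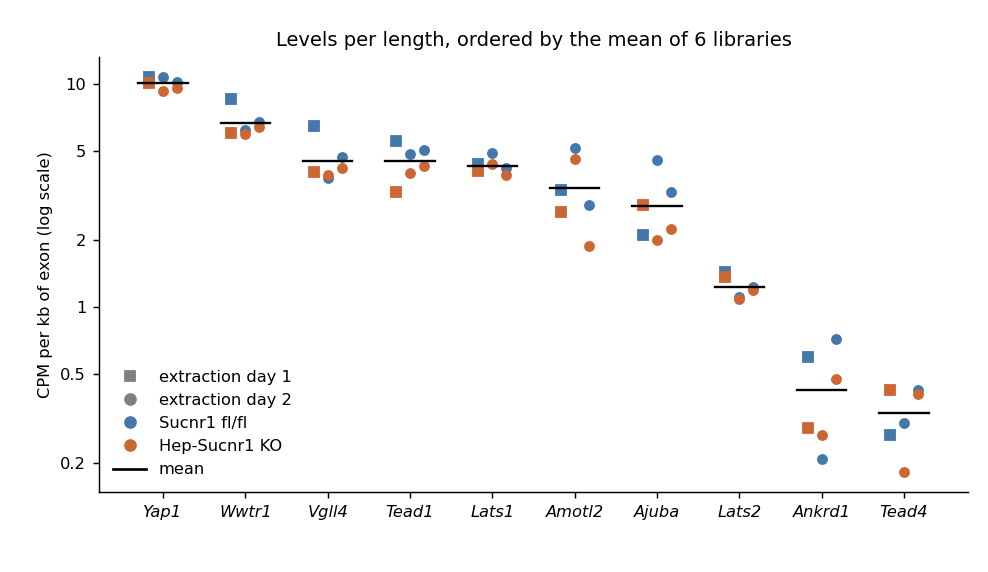
Level of each member in CPM per kb of exon on a log axis, ordered by the mean of the 6 libraries (black line). Each point is a library, colored by genotype and shaped by extraction day; *Yap1* and *Wwtr1* lead at means of 10.1 and 6.69, *Ankrd1* and *Tead4* are last at 0.425 and 0.333.

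The genotype comparison asks whether loss of the succinate receptor gene in hepatocytes goes with other levels of the pathway's transcripts. *Sucnr1* itself had 258, 118 and 103 counts in *Sucnr1* fl/fl replicates 1 to 3 and 84, 28 and 5 counts in Hep-*Sucnr1* KO replicates 3 to 5. The groups did not overlap, and the fitted knockout level was 21.3% of the control level (log2 fold change −2.23, SE 0.54), although the adjusted p was 0.998 in edgeR and 0.0328 in DESeq2. These counts cover the whole gene, including exons outside the deleted part. Of 15105 genes tested, edgeR called 0 for genotype (0%) at an adjusted p under 0.05 and 563 had an unadjusted p under 0.05, and DESeq2 called 7 (0.0463%), none of them a member. All 10 members passed the filter on low counts, but DESeq2 gave no adjusted p for genotype to *Tead4* and *Ankrd1*. None was called, and 9 of the 10 had a log2 fold change below 0, against 49.5% of all genes tested. The median over the members was −0.25, against 0.0 over all genes, and 2 of the 10 did not overlap between the genotypes with the knockout lower, against 4.04% of all genes. In this bulk RNA, fewer cells of a type and less RNA per cell cannot be told apart.

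**Figure D3:**
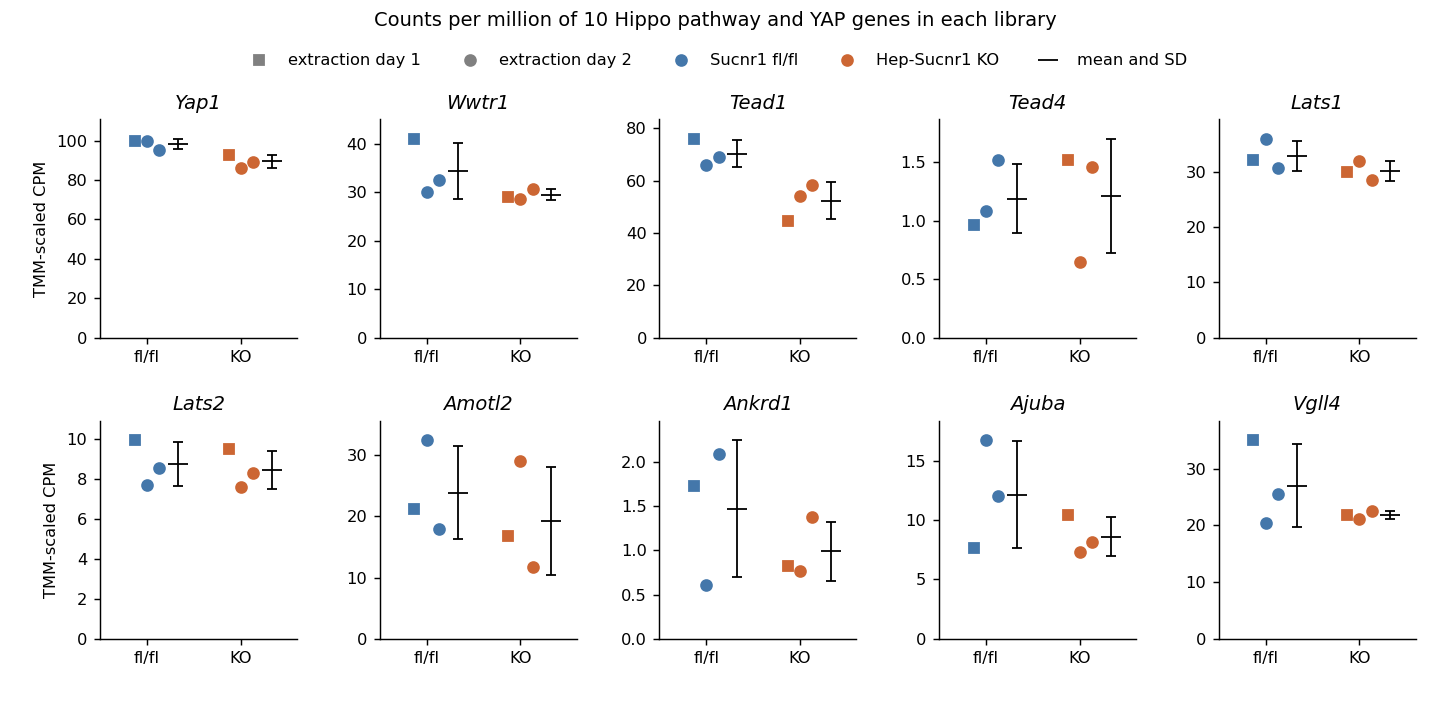
TMM-scaled CPM (y axis, from 0) of the 10 members in each library, by genotype (color) and extraction day (squares for day 1, circles for day 2), with mean and SD beside the points (n = 3 per genotype). *Yap1* and *Tead1* are the members whose groups do not overlap; *Tead1* runs from 65.8 to 75.8 CPM in *Sucnr1* fl/fl and from 44.4 to 58.3 in Hep-*Sucnr1* KO.

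*Yap1* (ENSMUSG00000053110, chr9:7931999-8004596, minus strand, GRCm38) stood at 99.8, 99.7 and 95.5 CPM in *Sucnr1* fl/fl and at 93.0, 86.2 and 89.2 CPM in Hep-*Sucnr1* KO. The 3 knockout libraries were all below the 3 controls, by a small margin, and with 3 against 3 the exact permutation p was 0.1, the smallest this design allows. The means were 98.3 ± 2.49 and 89.5 ± 3.41 CPM (SD, n = 3), and the log2 fold change was −0.14 (SE 0.1, 95% interval −0.37 to 0.1), with an edgeR adjusted p of 0.998. *Yap1* was the steadiest member: the SD of its log2 CPM over the 6 libraries was 0.09, lower than in all but 5.76% of the genes tested.

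*Wwtr1* (ENSMUSG00000027803, chr3:57455649-57575910, minus strand), the gene of TAZ, was at 41.0, 30.0 and 32.5 CPM in the controls and at 29.0, 28.7 and 30.8 CPM in the knockout. *Sucnr1* fl/fl replicate 1 was high and the other 5 libraries lay within 28.7 to 32.5 CPM, so the groups overlapped. The log2 fold change was −0.21 (SE 0.13, interval −0.52 to 0.09) and −0.07 without that control library. The latter fit rests on the day 2 libraries, since the day term takes up the day 1 library that remains. *Wwtr1* lies on the chromosome of *Sucnr1*, 2.51 Mb from it.

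*Tead1* (ENSMUSG00000055320, chr7:112679318-112906807, plus strand), which encodes the TEAD factor with the higher level per length of the 2 members, was the member whose interval for genotype excluded 0. Its values were 75.8, 65.8 and 69.0 CPM in *Sucnr1* fl/fl and 44.4, 54.1 and 58.3 CPM in Hep-*Sucnr1* KO. All controls were above all knockouts, and both day 1 libraries lay at the ends, *Sucnr1* fl/fl replicate 1 highest and Hep-*Sucnr1* KO replicate 3 lowest. The fitted knockout level was 74.1% of the control level, a log2 fold change of −0.43 (SE 0.14, 95% interval −0.75 to −0.11). The unadjusted p of 0.0157 became an adjusted p of 0.998 in edgeR, and DESeq2 gave −0.45 with an adjusted p of 1.0. Genes with an unadjusted p under 0.05 and a lower value in the knockout made up 1.81% of all genes tested, and *Tead1* was the only member among them. The log2 ratio of CPM was −0.77 on day 1 and −0.26 on day 2. For *Sucnr1* the same ratios were −1.34 and −2.83, so the day with the larger *Tead1* difference had the smaller *Sucnr1* difference. A relation between these differences was not tested.

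*Tead4* (ENSMUSG00000030353, chr6:128224288-128300823, minus strand) was at 0.962, 1.08 and 1.52 CPM in the controls and at 1.52, 0.65 and 1.46 CPM in the knockout. These rest on 22 to 48 counts per library, and the lowest, in Hep-*Sucnr1* KO replicate 4, has a Poisson 95% interval of 0.407 to 0.984 CPM, which covers counting error only. The groups overlapped entirely. The log2 fold change of 0.02 had an interval of −0.94 to 0.98, so neither a marked rise nor a marked fall of *Tead4* was detectable in these libraries.

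*Vgll4* (ENSMUSG00000030315, chr6:114860628-114969994, minus strand), whose product competes with YAP for TEAD factors, was at 35.0, 20.5 and 25.6 CPM in *Sucnr1* fl/fl and at 21.8, 21.2 and 22.6 CPM in Hep-*Sucnr1* KO. Control replicate 1 was high, as it was for *Wwtr1*, and the knockout libraries of *Vgll4* lay close together inside the control range. The log2 fold change was −0.28 (SE 0.16, interval −0.67 to 0.11), and it was −0.07 without control replicate 1, again a fit that rests on the day 2 libraries. Among the other TEAD and VGLL genes only *Tead3* passed the filter, with 9.82 ± 0.614 CPM in the controls and 9.49 ± 0.655 in the knockout (log2 fold change −0.05), while *Tead2*, *Vgll1* and *Vgll3* were below it and *Vgll2* had no row.

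Both LATS kinases had log2 fold changes close to 0. *Lats1* (ENSMUSG00000040021, chr10:7681214-7716460, plus strand) was at 32.1, 35.9 and 30.6 CPM in the controls and at 29.9, 32.0 and 28.5 CPM in the knockout, and *Lats2* (ENSMUSG00000021959, chr14:57689662-57758388, minus strand) at 9.94, 7.73 and 8.57 against 9.5, 7.59 and 8.29 CPM. Both genes overlapped between the groups. For *Lats1* the log2 fold change was −0.12 (SE 0.11, interval −0.39 to 0.15) and for *Lats2* −0.05 (SE 0.13, interval −0.36 to 0.27). *Lats2*, itself a YAP target that feeds back on YAP, was higher in the day 1 library than in either day 2 library of each genotype.

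*Amotl2* (ENSMUSG00000032531, chr9:102716672-102733418, plus strand) encodes an angiomotin protein that holds YAP at junctions and in the cytoplasm and is also a YAP target. It was at 21.2, 32.4 and 18.0 CPM in *Sucnr1* fl/fl and at 16.8, 29.0 and 11.8 CPM in Hep-*Sucnr1* KO. The spread within each genotype was larger than the difference between them, with *Sucnr1* fl/fl replicate 2 and Hep-*Sucnr1* KO replicate 4 high, and the highest library was 2.75 times the lowest. The log2 fold change was −0.31 (SE 0.35, interval −1.15 to 0.52), and single libraries moved it: leaving out Hep-*Sucnr1* KO replicate 4 gave −0.76, replicate 5 gave −0.02, and control replicate 2 gave −0.04.

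*Ajuba* (ENSMUSG00000022178, chr14:54567472-54577558, minus strand) encodes a LIM protein that binds and restrains LATS kinases. It was at 7.67, 16.7 and 12.0 CPM in the controls and at 10.4, 7.29 and 8.14 CPM in the knockout. On day 2 both controls were above both knockouts, whereas on day 1 the control was the lower of the 2 libraries. The log2 ratio of CPM was accordingly 0.45 on day 1 and −0.89 on day 2, and the pooled log2 fold change was −0.46 (SE 0.3, interval −1.16 to 0.25). Leaving out knockout replicate 3, a fit that rests on the day 2 libraries, gave −0.91, and leaving out control replicate 2 gave −0.18. The interaction of genotype and day for *Ajuba* was −1.34 (SE 0.38, interval −2.27 to −0.41), with an unadjusted p of 0.0128 and an edgeR adjusted p of 1.0. Over all genes, 0 were called for the interaction (0%), 557 (3.69%) had an unadjusted p under 0.05, and day 1 holds only 1 library per genotype.

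*Ankrd1* (ENSMUSG00000024803, chr19:36111961-36120099, minus strand), an ankyrin repeat gene widely used as a YAP reporter and the member with 2 cores on the gene's strand, was at 1.72, 0.602 and 2.08 CPM in *Sucnr1* fl/fl and at 0.823, 0.768 and 1.37 CPM in Hep-*Sucnr1* KO. It had 20 to 66 counts per library, and its SE for genotype, 0.51, was the largest of the members, before *Tead4* at 0.41. The lowest value, in *Sucnr1* fl/fl replicate 2, has a Poisson 95% interval of 0.367 to 0.929 CPM, which covers counting error only. Control replicates 1 and 3 were the highest of all libraries, but control replicate 2 was the lowest. The log2 fold change of −0.57 had the widest interval of the members, −1.77 to 0.64, and leaving out control replicate 3 moved it to −0.05, leaving out control replicate 2 to −1.0.

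**Figure D4:**
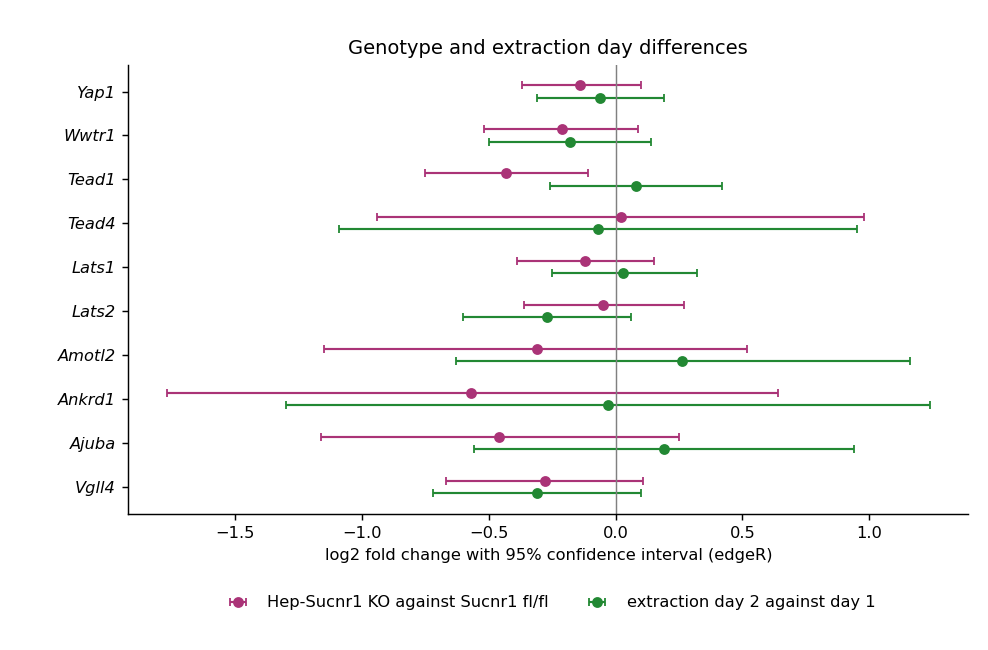
Log2 fold changes of the members with 95% confidence intervals from edgeR, for Hep-*Sucnr1* KO against *Sucnr1* fl/fl (upper bars) and for extraction day 2 against day 1 (lower bars), n = 6 libraries. For genotype only the interval of *Tead1*, −0.75 to −0.11, stays below 0, and the widest is that of *Ankrd1*, −1.77 to 0.64; no adjusted p is under 0.05.

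The extraction day was a term of the fit and a batch, not a treatment. Of all 15105 genes tested edgeR called 0 for the day (0%), 1132 had an unadjusted p under 0.05, and DESeq2 called 225. None of the 10 members had an unadjusted p under 0.05 for the day, and their adjusted p-values lay between 0.776 and 0.998. The largest day differences among the members, in log2 from day 1 to day 2, were those of *Vgll4* (−0.31, interval −0.72 to 0.1) and *Lats2* (−0.27, interval −0.6 to 0.06). For *Yap1* and *Lats1* the differences were −0.06 and 0.03.

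How the members varied together over the 6 libraries was described with 45 pairwise correlations of log2 CPM, of which 29 were above 0 and 0 had an adjusted permutation p under 0.05 (lowest 0.25). *Lats1* and *Amotl2* had Pearson's r = 0.92 (exact permutation p = 0.00556, adjusted 0.25) and Spearman's rho = 0.94 (exact permutation p = 0.0167, adjusted 0.375). Without the 2 libraries farthest from the median of *Lats1*, r was 0.83, and after removal of the genotype means it was 0.94. *Wwtr1* and *Vgll4* had r = 0.98 (exact permutation p = 0.0194, adjusted 0.375) and rho = 0.83 (exact permutation p = 0.0583, adjusted 0.656), but r was 0.4 without the 2 libraries farthest from the median of *Wwtr1*, so this relation rests on them. Day 1 holds 2 libraries and day 2 holds 4, too few for values within a day. The genes most like *Yap1* among 11715 genes with a mean of at least 1 CPM were *Tbc1d16* (r = 0.999), *Atp2b1* (r = 0.989) and *Ttc17* (r = 0.988), and 127 genes had an r of at least 0.9. For *Ankrd1* they were B930095G15Rik (r = 0.991), Gm4788 (r = 0.989) and *Cnot6l* (r = 0.981), with 111 genes at 0.9 or above. By Spearman's rho in place of r, 0 of the 3 genes named for *Yap1* (each at rho = 0.94) had a rho as high as the gene ranked 3 by rho. For *Ankrd1*, 2 of the 3 did, B930095G15Rik and *Cnot6l*, each at rho = 1.0. With n = 6 rho takes few values and genes can tie, so this does not place them within a top 3. The named genes are the top of a search over many genes with n = 6, in libraries that also share day and depth, and are given as a description.

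The other genes of the pathway were described by lists of named genes, and no gene of these lists had an adjusted p under 0.05 for genotype in edgeR or DESeq2. DESeq2 gave no adjusted p for some genes with low levels, among them *Ccn2*, *Fat4* and *Dchs1*. For the extraction day edgeR called none of the list genes either. DESeq2 called *Taok3*, of the kinase list (adjusted p 0.0141), and *Axl*, of the target list (adjusted p 0.0208), against 225 of all 15105 genes tested. Both were named after their values were seen. The edgeR day value of *Axl* was 1.94 in log2 (SE 0.61). All 7 Kupffer cell markers, described below, were also higher on day 2, with a median of 2.05. *Axl* and the sum of these markers were both lowest in Hep-*Sucnr1* KO replicate 3, at 1.52 and 4.49 CPM. The part of Kupffer cells in the *Axl* result was not tested. The kinases, adaptors and scaffolds above LATS, listed together with the LATS-related *Stk38* and *Stk38l*, were all tested. Of these 15 genes 4 were above and 11 below 0, against 49.5% of all genes below 0. Their median log2 fold change was −0.09. Their extremes were small: *Stk3* and *Stk38* had 0.08 and 0.06, *Stk38l*, a LATS-related kinase, −0.34 (SE 0.16), and *Wwc1*, the scaffold KIBRA, −0.22 (SE 0.12). *Stk4*, the partner of *Stk3*, stood at 27.2 ± 0.538 CPM in the controls and 25.5 ± 1.67 in the knockout. No gene of this list had knockout libraries that were all above or all below the controls. Of all 15105 genes tested, 988 had all knockouts above and 610 had all knockouts below.

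Of 17 junction and polarity genes, 16 were below 0 (median −0.22), against 49.5% of all genes, and 2 did not overlap with the knockout lower, against 4.04% of all genes. Those were the atypical cadherin *Fat4*, with 1.38, 0.632 and 0.528 CPM in the controls and 0.285, 0.443 and 0.455 in the knockout (log2 fold change −1.0, SE 0.47), and its ligand *Dchs1*, with 0.754, 0.421 and 0.561 against 0.317, 0.354 and 0.334 CPM (−0.76, SE 0.37). Both had low levels and edgeR adjusted p-values of 0.998. *Fat4* and *Dchs1* were both highest in *Sucnr1* fl/fl replicate 1 and lowest in Hep-*Sucnr1* KO replicate 3, the libraries with the highest (88.2 CPM) and lowest (31.3 CPM) sum of endothelial markers, whose part in the result was not tested. Without that control library the log2 fold change of *Fat4* was −0.37 and that of *Dchs1* −0.5. That fit rests on the day 2 libraries, which alone gave −0.38 and −0.51, so it cannot single out the control library. *Llgl1*, a polarity scaffold, was the exception at 0.09, and the next highest was *Pals1*, also a polarity scaffold, at −0.08. Without Hep-*Sucnr1* KO replicate 5 the median of the list moved to −0.39.

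The proteins that bind, degrade or dephosphorylate pathway components were balanced in direction: of 14 genes 7 were above and 7 below 0, against 49.5% of all genes below 0, with a median of 0.01. *Btrc*, the ubiquitin ligase adaptor that recognizes phosphorylated YAP, had 0.20 (SE 0.17) and *Csnk1e*, a casein kinase, 0.07. The lowest were *Ywhag*, a 14-3-3 gene, at −0.22, and *Slmap*, of the STRIPAK phosphatase complex, at −0.20. *Strn* was the 1 gene of this list that did not overlap, with the knockout lower (log2 fold change −0.12, SE 0.12), against 4.04% of all genes.

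Among the YAP and TAZ target genes outside the members, 17 of 19 were tested, since *Foxf2* had no row and *Rbms3* was below the filter. Of these 4 were above and 13 below 0, with a median of −0.23, against 49.5% of all genes below 0. Of the 17, 2 had an unadjusted p under 0.05 and were lower in the knockout, against 1.81% of all genes, and 2 did not overlap with the knockout lower, against 4.04%. *Ptpn14*, a phosphatase that binds YAP and is a target as well, was at 4.66, 6.53 and 7.06 CPM in *Sucnr1* fl/fl and at 4.12, 2.24 and 4.1 CPM in Hep-*Sucnr1* KO. All its knockout values were lower, and the log2 fold change was −0.79 (SE 0.3, unadjusted p 0.0332, edgeR adjusted p 0.998). *Ccn2*, a classical YAP target of the matricellular family, was at 0.832, 3.43 and 0.561 CPM in the controls and at 0.886, 0.532 and 0.516 CPM in the knockout. Its log2 fold change of −1.26 (SE 0.74) rested on 1 library, and without *Sucnr1* fl/fl replicate 2 it was −0.01. *Ccn1*, a further matricellular target named after its values were seen, was at 160, 157 and 157 CPM in the controls and at 126, 88.6 and 132 in the knockout, not overlapping, with a log2 fold change of −0.46 (SE 0.16, unadjusted p 0.0279, edgeR adjusted p 0.998). The highest were *Nt5e* at 0.54 (SE 0.54) and *Myof* at 0.25 (SE 0.59), both near 1 CPM, and both turned direction with 1 library left out, to −0.17 for *Nt5e* without Hep-*Sucnr1* KO replicate 4 and −0.32 for *Myof* without *Sucnr1* fl/fl replicate 2. Of 12 target genes with a promoter window 4 (33.3%) held the TEAD core, among them *Ccn1* and *Ptpn14*, against 14.6% of the genes tested. The core was also in 4 of 11 actin and SRF genes, 3 of 10 junction and polarity genes and 3 of 13 genes of the kinase list. In the handling list it was in 1 of 10. The share thus did not set the targets apart from the actin and junction lists. The cores of *Ccn1* and *Ptpn14* are shown because both genes were lower in all knockout libraries. They lay at −103 from the start of *Ccn1* and at −146 from that of *Ptpn14*, both upstream of any annotated gene. A relation between the core and the genotype difference was not tested.
*Ccn1*, chr3:145650063-145650108, minus strand: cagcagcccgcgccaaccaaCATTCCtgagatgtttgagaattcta
*Ptpn14*, chr1:189728102-189728147, plus strand: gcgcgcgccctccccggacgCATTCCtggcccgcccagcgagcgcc

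Actin and SRF genes were included because actin tension acts on YAP. All 12 tested genes were below 0 (median −0.15), against 49.5% of all genes, and 1 had an unadjusted p under 0.05 with a lower value in the knockout, against 1.81% of all genes. It was *Flna*, which encodes the actin crosslinker filamin A. *Flna* was at 33.7, 39.8 and 43.4 CPM in the controls and at 22.0, 20.2 and 36.5 CPM in the knockout, with Hep-*Sucnr1* KO replicate 5 inside the control range (log2 fold change −0.57, SE 0.21, unadjusted p 0.0313, edgeR adjusted p 0.998). *Zyx*, the gene of the focal adhesion protein zyxin, had −0.39 (SE 0.18), with the lowest value, 59.2 CPM, in Hep-*Sucnr1* KO replicate 4. *Vcl* was the 1 gene of this list that did not overlap, with the knockout lower, against 4.04% of all genes. It was at 338, 320 and 296 CPM in the controls and at 283, 210 and 273 in the knockout (log2 fold change −0.32, SE 0.14, edgeR adjusted p 0.998). The highest were *Tpm1*, a tropomyosin gene, at −0.01 (−0.21 to 0.22 with 1 library left out) and *Actb*, the beta-actin gene, at −0.03 (−0.15 to 0.12), so that their direction depended on single libraries.

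The hepatocyte label held: 8 of 8 hepatocyte markers were counted in every library, led by *Alb*, with a sum of 61743 to 93510 CPM. RNA of other liver cells was present at low levels. The 8 endothelial markers, led by *Cdh5*, had counts in every library and summed to 52.7 to 88.2 CPM in the controls and 31.3 to 60.4 in the knockout. The 8 stellate markers, led by *Dcn*, summed to 4.78 to 21.1 and 3.49 to 7.86 CPM, with *Des*, *Col3a1* and *Acta2* at 0 in at least 1 library. The 7 Kupffer cell markers, led by *Clec4f*, summed to 24.0 to 86.9 and 4.49 to 75.4 CPM, with the lowest value in Hep-*Sucnr1* KO replicate 3. The 6 bile duct markers summed to 350 to 512 and 426 to 650 CPM, nearly all of it *Spp1* and *Sox9*; the other 4 summed to 0.768 to 3.89 CPM, and *Krt7* was at 0 in at least 1 library.

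In some libraries a member and a marker sum were both extreme. *Sucnr1* fl/fl replicate 1, the highest library for *Wwtr1*, *Tead1* and *Vgll4*, also had the highest endothelial (88.2 CPM) and stellate (21.1 CPM) sums, and Hep-*Sucnr1* KO replicate 3, the lowest for *Tead1*, had the lowest endothelial sum (31.3 CPM). Hep-*Sucnr1* KO replicate 4, in contrast, had the highest endothelial sum of the knockouts (60.4 CPM) but the lowest *Wwtr1* value of all libraries (28.7 CPM). The part of endothelial and stellate cells in the result was not tested. Without *Sucnr1* fl/fl replicate 1 the log2 fold change of *Tead1* was −0.26, and without Hep-*Sucnr1* KO replicate 3 it was −0.27. In each of these fits the day term takes up the day 1 library that remains. Both therefore rest on the day 2 libraries, which alone gave −0.27, and cannot single out either library.

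**Figure D5:**
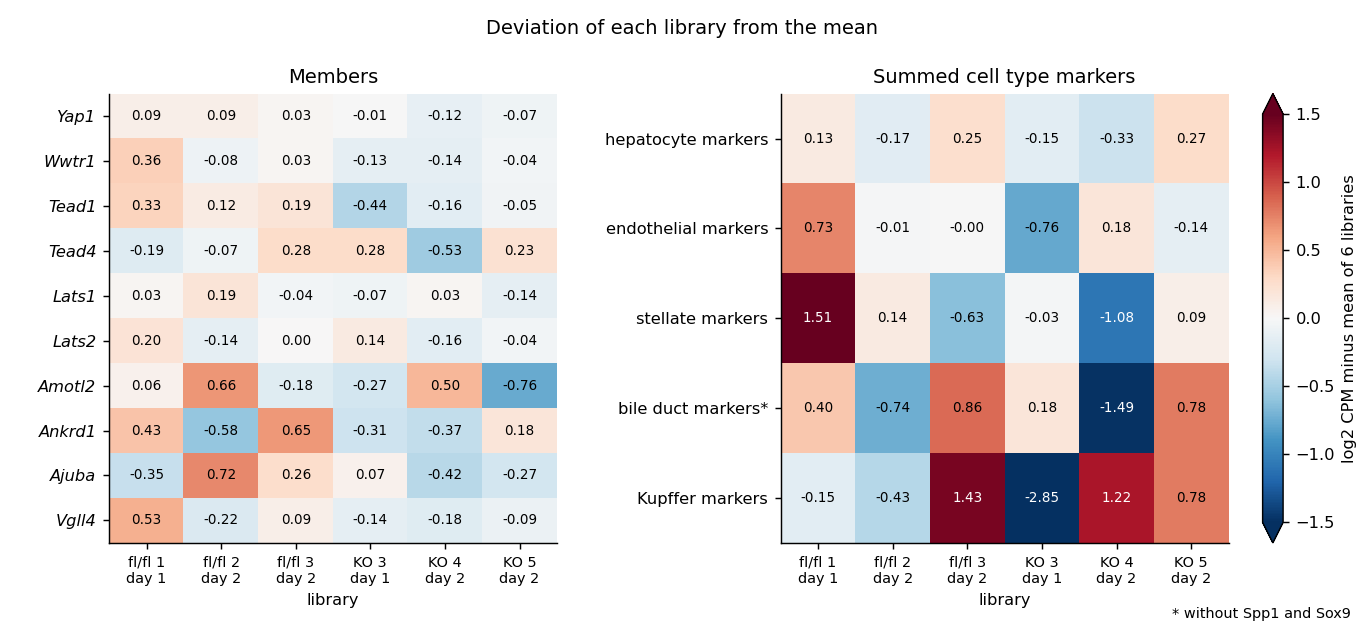
Deviation of log2 CPM of each member (left) and of each summed marker list (right) from the mean of the 6 libraries; colors saturate at 1.5 to either side and the values are printed. The first control library stands at 0.33 for *Tead1*, 0.36 for *Wwtr1*, 0.53 for *Vgll4* and 1.51 for the stellate markers, and *Yap1* stays within −0.12 to 0.09.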

How the data were processed

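RNA-seq of 6 libraries of cultured primary hepatocytes was analysed, 3 of *Sucnr1* fl/fl and 3 of Hep-*Sucnr1* KO mice. The authors trimmed stranded paired-end reads (Trim Galore 0.6.7), aligned them to GRCm38 (STAR 2.7.10a) and counted read pairs per Ensembl gene with featureCounts, and the deposited values are raw counts, 1 column per library, for 25184 genes (25096 with a symbol). How reads matching several genes were treated is not given in the sources used here.

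A gene was tested when its counts, normalized with DESeq2 size factors, averaged more than 5 over the libraries, which left 15105. Genotype was tested with edgeR 4.0.16 (R 4.3.3; TMM, quasi-likelihood test) in a model with extraction day, adjusted with Benjamini-Hochberg over all genes tested, at a threshold of 0.05. The day was tested in the same fit, the interaction in a fit with that term. CPM and correlations used TMM factors, with 0.5 added to CPM before log2. For single members, exact permutation tests (two-sided) were run on log2 CPM. Sequences came from RefSeq (GRCm38.p6), positions and lengths from GENCODE vM21. The common biological coefficient of variation was 0.206. The script was tested on simulated data.

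The members and lists were chosen with earlier results of these data known. Named by rule were the members, *Sucnr1*, the 2 highest and 2 lowest log2 fold changes of each pathway list and any past the threshold, the most abundant marker and markers at 0 of each cell type, and the 3 genes most like *Yap1* and *Ankrd1*. *Stk4*, *Ccn1*, *Taok3* and *Axl*, and the nonoverlapping genes pointed out, were picked with their values in view. Alternatives were DESeq2 1.42.0, its size factors or library size alone, other filters, a robust fit, no covariate, a term for the library index series, day 2 alone and each library left out.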

Additional observations from a re-analysis of the deposited data

How the results depend on the processing

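No member passed the threshold for genotype or day in any alternative, with edgeR adjusted p-values of 0.78 to 1.0 for genotype and 0.612 to 1.0 for the day; of the member log2 fold changes recomputed, 139 kept their direction for genotype and 11 did not, and 121 and 19 for the day. No paired analysis was possible because the genotypes share only replicate number 3. The cause of the shifts below was not tested, beyond the fewer libraries in a fit. When a day 1 library is left out, the day term takes up the other, so the genotype difference is that of the day 2 libraries. For genotype, *Tead4* was at −0.0 in DESeq2 and with its size factors, −0.01 by library size, −0.42 with the library index series as a term (indices 39 and 40 in *Sucnr1* fl/fl replicates 1 and 2, 85 to 88 in the other libraries) and −0.31 on day 2 alone, and −0.31 to 0.38 with 1 library left out. With the index series as a term *Lats1* was 0.01 and *Amotl2* 0.23. DESeq2 called 7 genes for genotype. For the day, DESeq2 called 225 genes, edgeR 122 without a filter, 139 within Hep-*Sucnr1* KO alone, and 0 to 29 with 1 library left out (29 without *Sucnr1* fl/fl replicate 2). Day values that turned direction within Hep-*Sucnr1* KO alone were *Wwtr1* 0.04, *Ankrd1* 0.37, *Ajuba* −0.44 and *Vgll4* 0.01, and within *Sucnr1* fl/fl alone *Tead1* −0.19 and *Tead4* 0.41. The median of the kinase list was −0.03 with the index term and −0.05 on day 2 alone, that of the handling list −0.01 (DESeq2, its size factors, no filter), −0.02 (library size) and −0.03 (index term, day 2 alone), and that of the target list −0.1 with the index term. With 1 library left out, the day value ran from −0.43 to 0.04 for *Wwtr1*, −0.21 to 0.34 for *Tead1*, −0.53 to 0.39 for *Tead4*, −0.06 to 0.08 for *Lats1*, −0.07 to 0.48 for *Amotl2*, −0.46 to 0.37 for *Ankrd1*, −0.44 to 0.87 for *Ajuba* and −0.64 to 0.01 for *Vgll4*. The genotype medians then ran from −0.26 to −0.15 for the members (−0.15 without *Sucnr1* fl/fl replicate 2), −0.11 to −0.04 for the kinases, −0.39 to −0.1 for the junction list, −0.03 to 0.0 for the handling list, −0.44 to −0.16 for the targets and −0.24 to −0.12 for the actin and SRF genes (−0.27 with the index term); the lowest value of the junction and of the target list came without Hep-*Sucnr1* KO replicate 5. Coding lengths were not run, and relative to the level the Poisson counting error was largest for *Tead4* and *Ankrd1*.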
